A study of Homo sapiens with 29 samples.

Results

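Interferon-stimulated genes were followed across the 3 groups of an RNA sequencing experiment on senescent fibroblasts. The gene group was a fixed list of 41 symbols, with no measured value in its rule, out of 28266 gene symbols in the count table, and all 41 were present. Of these, 33 had enough counts to be tested for differences between groups. The list held 4 IFIT genes, 3 IFITM genes, 2 GBP genes, 2 PARP genes, 6 genes of the OAS and double-stranded RNA-binding proteins, 5 of the ISG15 system, 4 transcription factors, 5 IFI genes and 10 other antiviral effectors.

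Type I interferons bind a receptor of IFNAR1 and IFNAR2, and the JAK1 and TYK2 kinases then phosphorylate STAT proteins, STAT2 among them. A complex with STAT2 and IRF9 binds the interferon-stimulated response element (ISRE) in the promoters of antiviral genes, while interferon gamma acts through the gamma-activated site (GAS). Fibroblasts are able to make and to answer type I interferon, and a part of these genes is also kept at a low level without added interferon.

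By their labels, all libraries came from IMR90 ER:RAS cells, human fetal lung fibroblasts. These carry a retroviral fusion of oncogenic RAS to the hormone-binding part of the estrogen receptor. The labels name this modified line for every sample, so that no other line or donor was compared by label. Values of library DMSO_siNT 4-2V went against that label, as given below. The ligand 4-hydroxytamoxifen (4OHT) activates the fusion, and growing cells then enter senescence driven by the oncogene. Controls received the solvent, DMSO. Cells received non-targeting siRNA (siNT) or siRNA against SMARCA4, the ATPase of the SWI/SNF chromatin remodelling complex, by reverse transfection the day before induction, and RNA was taken on day 7. The groups were DMSO_siNT, 4OHT_siNT and 4OHT_siSMARCA4, with 6 libraries each and with 2 siRNAs, numbered 2 and 4, in each group. A knockdown without 4OHT was not analysed here. Libraries are named by siRNA number and set label, such as 2-1V. The labels do not say what the set letters V and VM mean, nor whether libraries of a group came from separate cultures, so that p-values measure the spread between these libraries, which may be technical. Every one of the 6 4OHT_siNT libraries analysed was a VM library. DMSO_siNT held 3 of each letter code. Among the knockdown libraries 3 were V, 2 were VM, and 1 had a column named 2-1VM that matched no sample title. It is called the unmatched library and was left out where only VM sets or set letters were compared. Of 29 labelled samples, 12 were not analysed here.

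Total counts per library ran from 9657309 to 18039313. SMARCA4 was at 276 to 330 counts-per-million (CPM) in 4OHT_siNT, at 71.9 to 142 CPM in 4OHT_siSMARCA4 and at 185 to 230 CPM in DMSO_siNT without library 4-2V. The DMSO_siNT library 4-2V stood apart and went against its cell line label. ESR1, the receptor gene from which the fusion takes its hormone-binding part, was at 28.0 CPM there and at 1014 to 1285 CPM in the other DMSO_siNT libraries, and HRAS was at 414 CPM against 2122 to 2866 CPM. Its summed fibroblast markers (COL1A1, COL1A2, COL3A1, VIM, THY1, PDGFRB and S100A4) were at 10122 CPM, against 25246 to 29580 CPM in the other 5. It was therefore left out of the fits, and its values are given apart. DMSO_siNT below means the other 5 libraries. The same marker sum was 14950 to 19767 CPM in 4OHT_siNT and 8806 to 12601 CPM in 4OHT_siSMARCA4. Of 5 epithelial markers (EPCAM, CDH1, KRT5, KRT18 and KRT19), KRT5 was at 0 in all 17 libraries, and their sum was 88.5 to 125 CPM in DMSO_siNT, 55.6 to 72.5 CPM in 4OHT_siNT and 28.6 to 50.6 CPM in 4OHT_siSMARCA4, nearly all of it from KRT18 and, in DMSO_siNT, KRT19. Of 4 endothelial markers (PECAM1, CDH5, VWF and KDR), PECAM1 and CDH5 were at 0 in DMSO_siNT, and the sum was 1.32 to 2.14, 4.31 to 5.52 and 1.33 to 5.84 CPM in the same groups. The part of these marker sums in the results below was not tested.

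Promoter sequence was read from RefSeq (GRCh38.p14), which held an entry for 34 of the 41 genes. None was found for IFIT2, IFITM2, GBP2, OAS2, OASL, USP18 and IRF7. In the 250 bases before the transcript start, the ISRE core, written as GAAA, any 2 bases and GAAA again, was searched on both strands, with overlapping matches counted separately. It was present in 18 of the 34 promoters, or 52.9%, and in 839 of all 27305 promoters of the same length, or 3.07%. The GAS core, TTC, any 3 bases and GAA, was in 8 of the 34, or 23.5%, against 6.78% of all. The last 160 bases before the start are given for 8 genes, written 5′ to 3′ on the strand of the gene, with ISRE matches of either strand in capitals. They were chosen to set relatives that behaved differently side by side: IFIT1, IFIT3 and IFIT5, IFITM1 and IFITM3, the neighbours SAMD9 and SAMD9L, and IFI35.
IFIT1, chr10:89392463-89392622, plus strand: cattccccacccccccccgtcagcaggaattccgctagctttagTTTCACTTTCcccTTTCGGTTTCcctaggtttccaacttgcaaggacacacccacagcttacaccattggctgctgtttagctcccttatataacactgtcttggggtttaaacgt
IFIT3, chr10:89327837-89327996, plus strand: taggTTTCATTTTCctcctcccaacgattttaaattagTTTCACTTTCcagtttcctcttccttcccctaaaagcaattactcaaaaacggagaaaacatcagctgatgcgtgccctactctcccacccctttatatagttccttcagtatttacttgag
IFIT5, chr10:89414408-89414567, plus strand: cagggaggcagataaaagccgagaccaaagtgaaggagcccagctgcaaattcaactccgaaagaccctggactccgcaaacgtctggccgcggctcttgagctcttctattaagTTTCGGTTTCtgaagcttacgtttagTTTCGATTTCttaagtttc
IFITM1, chr11:313880-314039, plus strand: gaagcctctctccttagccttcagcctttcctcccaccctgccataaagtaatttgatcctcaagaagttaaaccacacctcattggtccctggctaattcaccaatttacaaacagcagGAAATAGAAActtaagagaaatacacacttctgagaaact
IFITM3, chr11:320861-321020, minus strand: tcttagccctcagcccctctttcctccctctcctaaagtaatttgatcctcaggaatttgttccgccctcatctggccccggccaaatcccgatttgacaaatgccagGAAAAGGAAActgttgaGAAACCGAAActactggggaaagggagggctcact
SAMD9, chr7:93117980-93118139, minus strand: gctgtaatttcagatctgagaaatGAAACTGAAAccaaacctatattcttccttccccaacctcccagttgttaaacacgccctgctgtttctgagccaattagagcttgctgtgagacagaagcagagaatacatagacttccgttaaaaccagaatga
SAMD9L, chr7:93148386-93148545, minus strand: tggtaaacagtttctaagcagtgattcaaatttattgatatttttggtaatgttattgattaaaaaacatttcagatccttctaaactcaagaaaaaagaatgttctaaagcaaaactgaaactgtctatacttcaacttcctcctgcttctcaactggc
IFI35, chr17:43006624-43006783, plus strand: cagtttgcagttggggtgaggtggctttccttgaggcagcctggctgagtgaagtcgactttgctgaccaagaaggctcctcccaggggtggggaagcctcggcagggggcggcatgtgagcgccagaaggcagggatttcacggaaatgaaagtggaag
The 3 IFIT promoters each held 2 matches. They lay 156 and 122 bases before the start in IFIT3, 116 and 103 bases in IFIT1, and 45 and 19 bases in IFIT5, counted from the first base of the match. IFITM1 held 1 match and IFITM3 held 2, and SAMD9 held 1 where SAMD9L and IFI35 held none in this window. A match of letters is a description and was not tested as a binding site.

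How these genes stood in senescent cells was read by comparing 4OHT_siNT with DMSO_siNT. Most of the tested genes were lower in the senescent cells. Of 33 tested, 19 fell, 3 rose and 11 were not called at an adjusted p under 0.05 in the quasi-likelihood test of edgeR. In the same comparison 58.3% of all 13276 genes tested were called, 30.3% lower and 27.9% higher. The median log2 fold change was −0.71 over the 33 genes and −0.017 over all genes. In these bulk samples fewer cells of a type and less RNA per cell cannot be told apart. With library 4-2V in DMSO_siNT, 17 fell and 3 rose, and 52.8% of all genes were called. Because no V library of 4OHT_siNT was analysed, the comparison was repeated within VM sets, where 16 of 34 tested fell and 4 rose, with a median of −0.51 and 53.5% of all genes called.

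**Figure D1:**
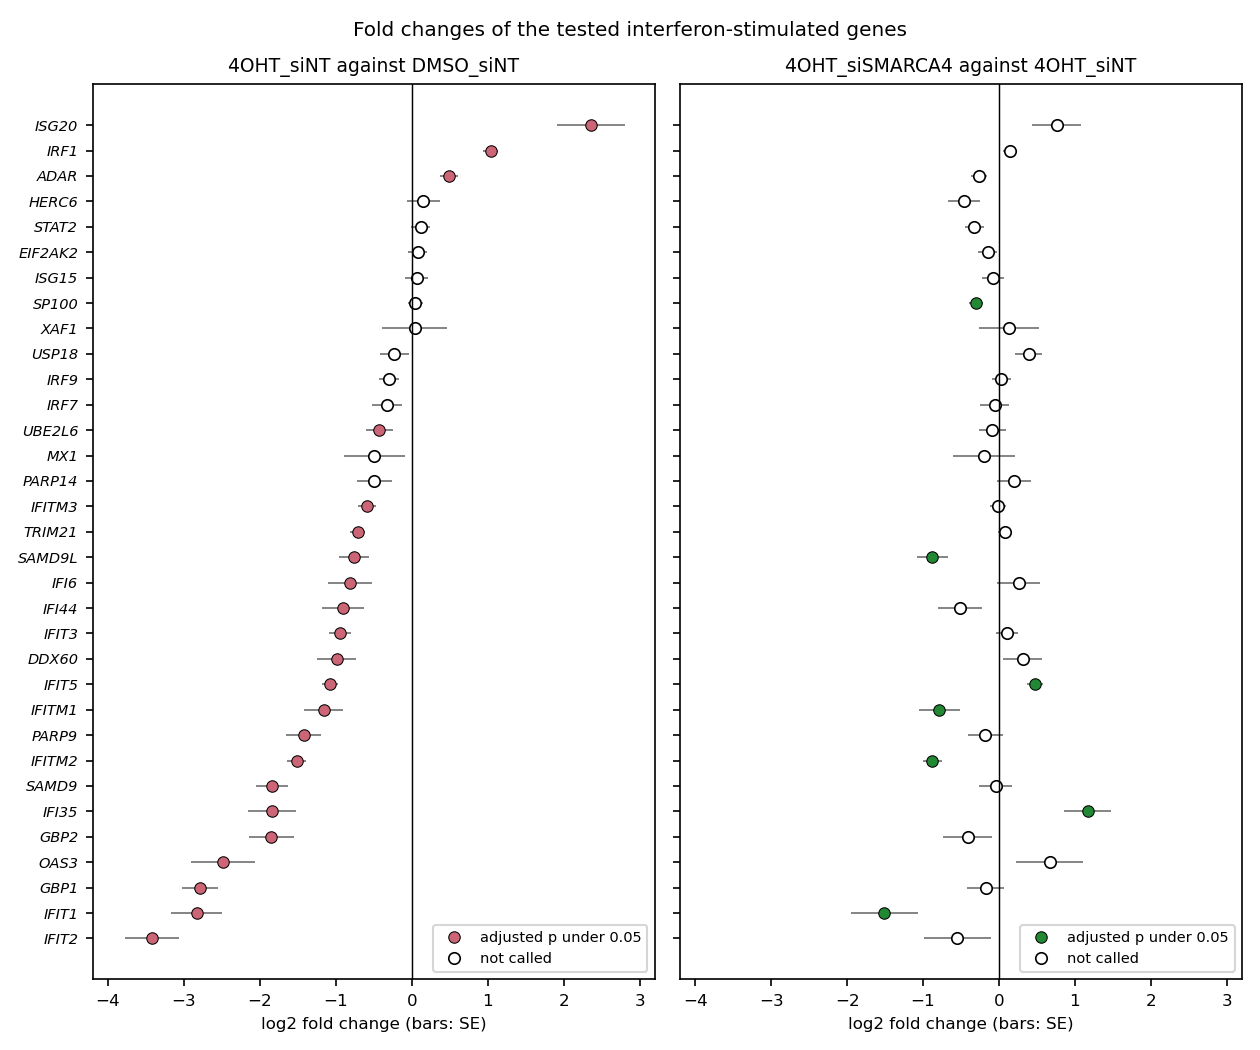
Log2 fold change of each of the 33 tested genes in 4OHT_siNT against DMSO_siNT (left) and in 4OHT_siSMARCA4 against 4OHT_siNT (right), with bars of 1 SE and filled points for an adjusted p under 0.05 in edgeR. On the left 19 filled points lie below 0 and 3 above, from IFIT2 at −3.42 to ISG20 at 2.36; on the right 5 filled points lie below 0 and 2 above.

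The IFIT proteins bind foreign or unusual RNA and hold back its translation, and all 4 IFIT genes fell. IFIT1, which binds RNA lacking ribose methylation at the cap, was at 14.2 and 7.40 CPM in the V libraries of DMSO_siNT and at 5.46, 5.62 and 5.49 CPM in the VM libraries. In 4OHT_siNT it was at 0.623 CPM in the lowest library, with a median of 0.975 CPM and a highest value of 1.93 CPM. No library of either group overlapped the other, and the difference was −2.83 ± 0.34 on the log2 scale (± SE throughout; edgeR adjusted p = 4.34e-07). IFIT2, its partner in a complex with IFIT3, was at 14.8 and 12.6 CPM in V and at 6.93, 9.90 and 7.83 CPM in VM libraries of DMSO_siNT. The 4OHT_siNT libraries were at 0.519, 1.05 and 1.36 CPM (lowest, median and highest). This was the largest fall of the group, with a log2 fold change of −3.42 ± 0.36 (edgeR adjusted p = 6.72e-08). IFIT3, which stabilizes IFIT1 on RNA, fell by less, at −0.94 ± 0.15 on the log2 scale (edgeR adjusted p = 1.33e-05), from 9.24 to 16.8 CPM in DMSO_siNT to 6.08 to 8.05 CPM in 4OHT_siNT. IFIT5 fell by 1.08 ± 0.10 on the log2 scale (edgeR adjusted p = 2.33e-08), from 24.1 to 34.1 CPM to 12.9 to 16.5 CPM.

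**Figure D2:**
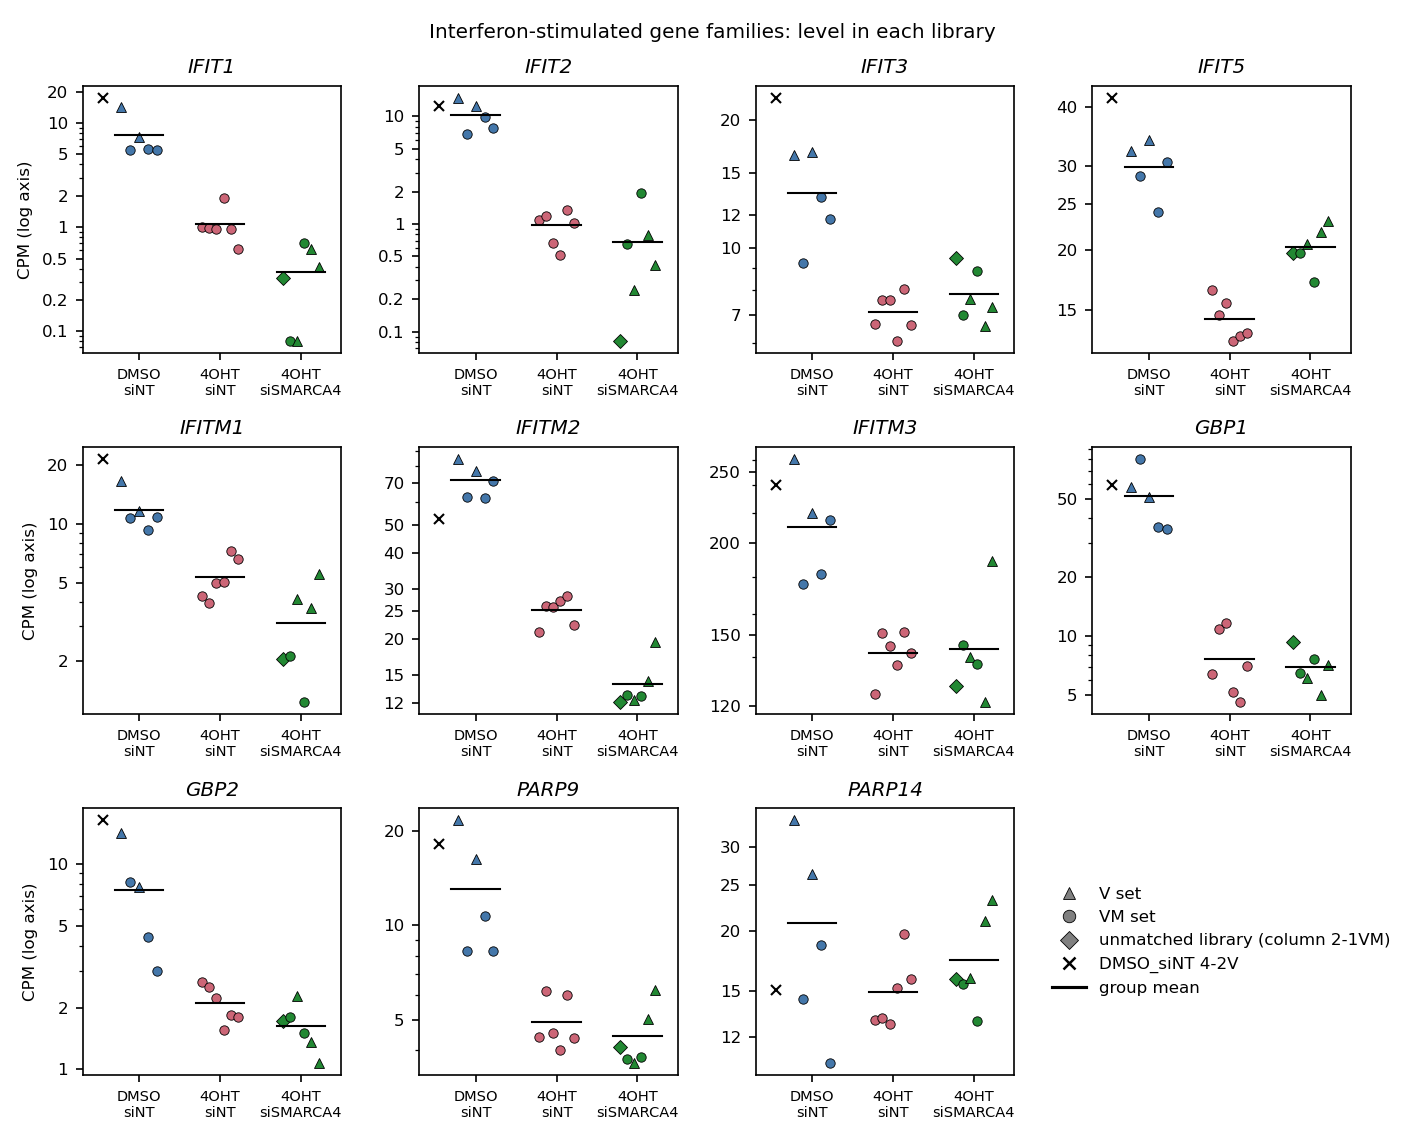
Level of the 11 IFIT, IFITM, GBP and PARP genes in each library, in CPM on a log axis, with the group mean as a line (triangles, V sets; circles, VM sets; diamond, the unmatched library; cross, DMSO_siNT 4-2V, not in the mean). All 5 DMSO_siNT libraries lie above all 6 4OHT_siNT libraries for 10 of the 11 genes, and the groups overlap for PARP14. The share of all genes without overlap is not given here, and 58.3% of all genes were called in this comparison.

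The IFITM proteins sit in cell membranes and block the entry of enveloped viruses. The 3 genes are close relatives in one cluster, and how reads shared between them were counted is not given in the sources used here, so that their split is uncertain. The same holds for the IFIT cluster and for antisense genes, since the strand setting of the counting is not given either. All 3 IFITM genes fell. IFITM2 was at 84.4 and 76.7 CPM in V and at 62.5, 61.7 and 70.8 CPM in VM libraries of DMSO_siNT, and at 21.3, 26.03 and 28.4 CPM (lowest, median and highest) in 4OHT_siNT, a log2 fold change of −1.51 ± 0.12 (edgeR adjusted p = 2.01e-09). IFITM1 was at 16.6 and 11.6 CPM in V and at 10.7, 9.31 and 10.9 CPM in VM libraries, and at 3.94, 5.01 and 7.30 CPM in 4OHT_siNT. Its log2 fold change was −1.16 ± 0.26 (edgeR adjusted p = 0.000668). IFITM3, the member best known for restricting influenza virus, went from 176 to 260 CPM to 125 to 151 CPM, a log2 fold change of −0.59 ± 0.11 (edgeR adjusted p = 0.000162). For each of the 3 the highest 4OHT_siNT library lay below the lowest DMSO_siNT library, and how often this held over all genes is not given here.

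Guanylate-binding proteins are large GTPases that act on intracellular pathogens and are strong targets of interferon gamma. Both GBP genes fell. GBP1 was at 57.6 and 51.5 CPM in V and at 80.1, 35.98 and 35.3 CPM in VM libraries of DMSO_siNT, and at 4.64, 6.76 and 11.7 CPM in 4OHT_siNT. The log2 fold change was −2.79 ± 0.24 (edgeR adjusted p = 3.72e-09), against −2.74 ± 0.28 within VM sets. GBP2 fell by 1.85 ± 0.30 on the log2 scale (edgeR adjusted p = 1.95e-05), from 3.00 to 14.2 CPM to 1.56 to 2.68 CPM.

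PARP9 and PARP14 are ADP-ribosyltransferase family members that shape interferon signalling. PARP9 fell by 1.42 ± 0.23 on the log2 scale (edgeR adjusted p = 2.31e-05). It was at 21.6 and 16.3 CPM in V and at 8.26, 10.7 and 8.27 CPM in VM libraries of DMSO_siNT, against 4.00 to 6.18 CPM in 4OHT_siNT, and within VM sets the log2 fold change was −0.89 ± 0.17. PARP14 was at 34.2 and 26.3 CPM in V and at 14.4, 18.7 and 10.6 CPM in VM libraries, and its 4OHT_siNT libraries, at 12.8 to 19.8 CPM, lay within that range. It was not called, with a log2 fold change of −0.49 ± 0.23 (edgeR adjusted p = 0.0724) in all sets and 0.03 ± 0.18 within VM sets.

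Of the OAS and double-stranded RNA-binding proteins, 2 fell and 1 rose. OAS3, which makes the 2-5A messenger that activates RNase L, was at 12.5 and 11.2 CPM in V and at 4.62, 5.10 and 2.49 CPM in VM libraries of DMSO_siNT. The 4OHT_siNT libraries were at 0.668, 1.05 and 2.73 CPM (lowest, median and highest), so that the groups overlapped at the edge. The log2 fold change was −2.48 ± 0.42 (edgeR adjusted p = 3.64e-05) and shrank to −1.66 ± 0.42 within VM sets (edgeR adjusted p = 0.00344). DDX60, a helicase linked to RIG-I signalling, went from 3.29 to 11.5 CPM to 2.59 to 3.75 CPM, with overlap. It fell by 0.99 ± 0.26 on the log2 scale (edgeR adjusted p = 0.00279), and by 0.53 ± 0.20 within VM sets (edgeR adjusted p = 0.0414). ADAR, the enzyme that edits double-stranded RNA and so keeps it from being sensed, rose by 0.49 ± 0.11 on the log2 scale (edgeR adjusted p = 0.000984), from 148 to 243 CPM to 262 to 303 CPM. EIF2AK2, which encodes the translation-blocking kinase PKR, was not called (0.08 ± 0.13, edgeR adjusted p = 0.621).

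ISG15 is a ubiquitin-like protein that is joined to other proteins by UBE2L6 and HERC5 and taken off by USP18. It was at 30.4 to 50.04 CPM in DMSO_siNT and at 36.01 to 46.2 CPM in 4OHT_siNT, and the groups overlapped (0.07 ± 0.15, edgeR adjusted p = 0.724). USP18 was not called (−0.23 ± 0.19, edgeR adjusted p = 0.324), and neither was HERC6, a relative of HERC5 (0.15 ± 0.22, edgeR adjusted p = 0.57), which within VM sets was higher by 0.56 ± 0.22 (edgeR adjusted p = 0.0463). UBE2L6 fell by 0.43 ± 0.18 on the log2 scale (edgeR adjusted p = 0.0444), but not within VM sets (−0.12 ± 0.14, edgeR adjusted p = 0.509) nor with library 4-2V in the fit (−0.41, edgeR adjusted p = 0.0591). Its V libraries in DMSO_siNT, at 52.6 and 39.3 CPM, were the highest of all. Leaving out 2-1V gave −0.24 (edgeR adjusted p = 0.218), and the call was also lost without DMSO_siNT 2-2V, 4OHT_siNT 2-1VM, 2-2VM, 2-3VM or 4-1VM, or 4OHT_siSMARCA4 2-3V, at adjusted p of 0.0514 to 0.0912 in edgeR.

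Among the transcription factors of the list, IRF1 rose and the others were not called. IRF1, which also answers NF-κB, was at 31.1 and 26.1 CPM in V and at 21.9, 23.0 and 24.5 CPM in VM libraries of DMSO_siNT, and at 47.6, 52.6 and 61.4 CPM (lowest, median and highest) in 4OHT_siNT. The groups did not overlap, and the log2 fold change was 1.04 ± 0.10 (edgeR adjusted p = 1.43e-08). STAT2 and IRF9, which act together on the ISRE, gave 0.12 ± 0.13 (edgeR adjusted p = 0.438) and −0.30 ± 0.13 (edgeR adjusted p = 0.0529). IRF7, which amplifies type I interferon production, gave −0.33 ± 0.19 (edgeR adjusted p = 0.156).

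All 3 tested IFI genes fell, and 2 of them were called with all sets only. IFI35, a partner of NMI, was at 9.66 and 6.20 CPM in V and at 4.41, 4.58 and 5.56 CPM in VM libraries of DMSO_siNT, against 1.19 to 2.52 CPM in 4OHT_siNT. Its log2 fold change was −1.84 ± 0.31 (edgeR adjusted p = 3.99e-05), and −1.51 ± 0.22 within VM sets. IFI6, a small mitochondrial and endoplasmic reticulum protein, fell by 0.81 ± 0.29 (edgeR adjusted p = 0.0208) and IFI44 by 0.90 ± 0.27 (edgeR adjusted p = 0.00769) on the log2 scale. Within VM sets neither was called, at −0.49 ± 0.27 (edgeR adjusted p = 0.136) and −0.53 ± 0.28 (edgeR adjusted p = 0.121). IFI6 also lost its call without DMSO_siNT library 2-1V (−0.58, edgeR adjusted p = 0.0943) and without 4OHT_siNT library 2-1VM (−0.70, edgeR adjusted p = 0.0508).

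**Figure D3:**
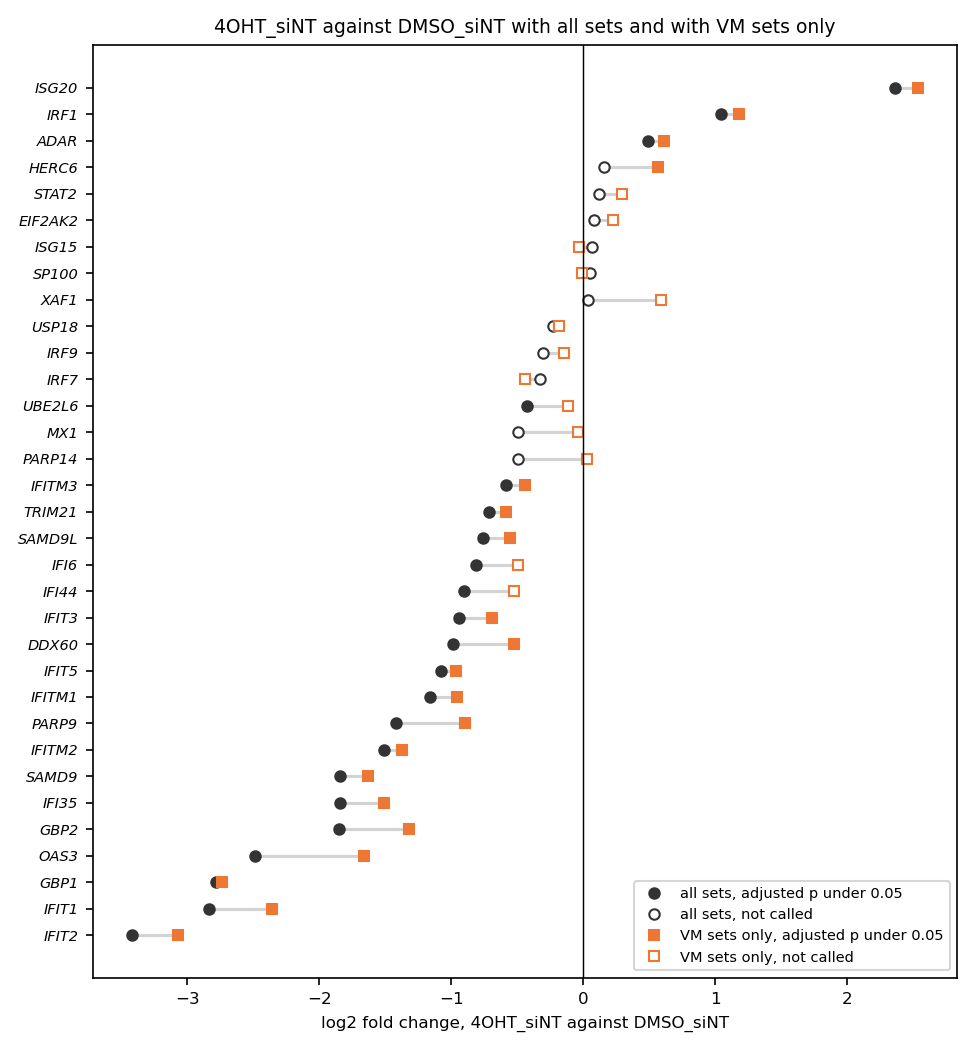
Log2 fold change in 4OHT_siNT against DMSO_siNT for the 33 tested genes with all sets (circles) and with VM sets only (squares), filled where the adjusted p was under 0.05. UBE2L6, IFI6 and IFI44 are filled with all sets only and HERC6 with VM sets only, and OAS3 moves from −2.48 to −1.66.

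Of the other antiviral effectors, SAMD9, SAMD9L and TRIM21 fell and ISG20 rose. SAMD9 and SAMD9L are neighbouring restriction factors of poxviruses that slow translation. SAMD9 went from 8.41 to 16.3 CPM to 3.27 to 4.16 CPM, a log2 fold change of −1.84 ± 0.21 (edgeR adjusted p = 2.11e-07). SAMD9L went from 9.44 to 20.2 CPM to 7.13 to 11.2 CPM, with overlap, and fell by 0.76 ± 0.20 on the log2 scale (edgeR adjusted p = 0.00266). With library 4-2V in the fit SAMD9L was not called (−0.58, edgeR adjusted p = 0.0945). TRIM21, an intracellular antibody receptor, fell by 0.71 ± 0.10 (edgeR adjusted p = 4.05e-06). ISG20, a 3′ to 5′ exonuclease, was at 0.764 and 0.161 CPM in V and at 0.420, 0 and 0.658 CPM in VM libraries of DMSO_siNT, with at most 11 counts, and at 0.965, 2.36 and 2.82 CPM in 4OHT_siNT. Every 4OHT_siNT library lay above every DMSO_siNT library, with a log2 fold change of 2.36 ± 0.45 (edgeR adjusted p = 0.000132), a size that rests on few counts in DMSO_siNT. MX1, XAF1 and SP100 were not called, and MX1 did not exceed 1.88 CPM and XAF1 1.74 CPM in these 17 libraries.

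The genes that did not pass the filter were OAS2, OASL, HERC5, IFI27, IFI44L, RSAD2, CMPK2 and BST2, several of which are among the most strongly induced genes of an interferon response. BST2 had at most 5 counts, OAS2 at most 7 and RSAD2 at most 4 in any of the 17 libraries. IFI44L was at 0.280 to 1.32 CPM in DMSO_siNT, with at most 18 counts, and at 0 to 0.222 CPM in 4OHT_siNT, with at most 3 counts. HERC5 had at most 14 counts, IFI27 at most 12, CMPK2 at most 15 and OASL at most 11. HERC5 passed the filter within VM sets and was not called there (−0.61 ± 0.48, edgeR adjusted p = 0.306). Without the filter, IFI44L fell in 4OHT_siNT against DMSO_siNT (−3.15 ± 0.59, edgeR adjusted p = 8.09e-05) and was lower in 4OHT_siSMARCA4 than in DMSO_siNT (−3.96 ± 0.66, edgeR adjusted p = 1.63e-05). OASL, a relative of the OAS enzymes at 0.281 to 0.750 CPM in 4OHT_siNT and 0.0810 to 0.244 CPM in 4OHT_siSMARCA4, was lower under knockdown (−1.80 ± 0.46, edgeR adjusted p = 0.00882). Both rest on few counts, at most 3 a library for IFI44L in 4OHT_siNT and 1 to 3 for OASL in 4OHT_siSMARCA4. The other 6 were not called in these comparisons at this depth.

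The main question of the design was what SMARCA4 knockdown changed in senescent cells. Between 4OHT_siSMARCA4 and 4OHT_siNT most interferon-stimulated genes were not called. Of 33 tested, 5 were lower (IFIT1, IFITM1, IFITM2, SAMD9L and SP100), 2 were higher (IFIT5 and IFI35) and 26 were not called in edgeR. Without the filter OASL was also lower. Over all genes 24.6% were called, 12.9% lower and 11.7% higher, and 7 of 33 was near that background. The median log2 fold change was −0.077 over the 33 genes and 0.0007 over all genes. With library 4-2V in the fit, which is in neither arm but raises the shared estimate of spread, 1 gene was lower and 2 were higher, with 10.6% of all genes called. Within VM sets 8 of 34 were lower and 1 was higher, with a median of −0.23, where 21% of all genes were called. With siSMARCA4_2 alone 8 of 34 were lower and 3 higher (26.1% of all genes), and with siSMARCA4_4 alone 1 was lower and 1 higher (9.46% of all genes). The siSMARCA4_2 libraries were 2-3V, 2-3VM and the unmatched library, and those of siSMARCA4_4 were 4-2V, 4-3V and 4-2VM. Knockdown siRNA and set letters were therefore not balanced, and their parts cannot be told apart here.

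IFITM2 was the gene whose lower level under knockdown was called under all alternatives run. It was at 12.1, 12.8 and 19.6 CPM (lowest, median and highest) in 4OHT_siSMARCA4 against 21.3, 26.03 and 28.4 CPM in 4OHT_siNT, with no overlap. The log2 fold change was −0.88 ± 0.12 (edgeR adjusted p = 6.15e-05). With siSMARCA4_2 alone it was −1.05 ± 0.13 (edgeR adjusted p = 2.08e-05), and with siSMARCA4_4 alone −0.71 ± 0.15 (edgeR adjusted p = 0.00772). IFITM1 was at 1.24, 2.93 and 5.55 CPM against 3.94, 5.01 and 7.30 CPM, with overlap, and fell by 0.79 ± 0.27 on the log2 scale (edgeR adjusted p = 0.0381). The 3 V libraries of 4OHT_siSMARCA4 were at 4.13, 3.74 and 5.55 CPM, the 2 VM libraries at 2.12 and 1.24 CPM and the unmatched library at 2.05 CPM, and within VM sets the log2 fold change was −1.71 ± 0.31 (edgeR adjusted p = 0.00134). The call was lost with siSMARCA4_4 alone (−0.61 ± 0.32, edgeR adjusted p = 0.258), against siNT 2 alone (−0.50 ± 0.33, edgeR adjusted p = 0.355) and when 4OHT_siNT 4-1VM, 4-2VM or 4-3VM or 4OHT_siSMARCA4 2-3VM, 4-2VM or the unmatched library was left out, at −0.79 to −0.62 (edgeR adjusted p = 0.059 to 0.0998). IFITM3 gave −0.01 ± 0.11 (edgeR adjusted p = 0.947), at 122 to 189 CPM against 125 to 151 CPM.

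IFIT1 and IFIT5 moved in opposite directions. IFIT1 was at 0.328, 0.0814 and 0.0810 CPM with siSMARCA4_2, the last 2 standing for 1 count each, and at 0.707, 0.624 and 0.414 CPM with siSMARCA4_4. Against 0.623 to 1.93 CPM in 4OHT_siNT the log2 fold change was −1.51 ± 0.45 (edgeR adjusted p = 0.0179). It was −2.68 ± 0.66 with siSMARCA4_2 alone (edgeR adjusted p = 0.00638) and −0.89 ± 0.46 with siSMARCA4_4 alone (edgeR adjusted p = 0.245), and the call was also lost within VM sets (−1.51 ± 0.57, edgeR adjusted p = 0.0734), against siNT 2 alone (−1.37 ± 0.53, edgeR adjusted p = 0.101) or siNT 4 alone (−1.63 ± 0.57, edgeR adjusted p = 0.0501), with library 4-2V in the fit (edgeR adjusted p = 0.0586) and without 4OHT_siNT library 4-1VM (−1.25, edgeR adjusted p = 0.0562). IFIT5 was at 17.1, 20.2 and 23.0 CPM (lowest, median and highest) against 12.9, 14.0 and 16.5 CPM in 4OHT_siNT, with no overlap, and rose by 0.48 ± 0.10 on the log2 scale (edgeR adjusted p = 0.00214). Its rise was called with either siSMARCA4 siRNA alone, at 0.45 ± 0.12 and 0.52 ± 0.13, but not within VM sets (0.32 ± 0.13, edgeR adjusted p = 0.108) or against siNT 2 alone (0.37 ± 0.13, edgeR adjusted p = 0.0627). All 6 knockdown libraries of IFIT5 remained below the lowest DMSO_siNT library. IFIT2 was not called (−0.55 ± 0.44, edgeR adjusted p = 0.389), spreading from 0.0820 to 1.94 CPM, and IFIT3 gave 0.10 ± 0.14 (edgeR adjusted p = 0.649).

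IFI35 rose by 1.17 ± 0.31 on the log2 scale (edgeR adjusted p = 0.00973), but its knockdown libraries did not move as one. With siSMARCA4_2 it was at 5.002, 5.78 and 3.97 CPM and with siSMARCA4_4 at 5.74 CPM in the VM library and at 1.53 and 1.99 CPM in the V libraries, against 1.19 to 2.52 CPM in 4OHT_siNT. Its rise was 1.49 ± 0.27 with siSMARCA4_2 alone (edgeR adjusted p = 0.000688), 0.79 ± 0.37 with siSMARCA4_4 alone (edgeR adjusted p = 0.198) and 1.70 ± 0.24 within VM sets (edgeR adjusted p = 0.000247). Against siNT 4 alone it was not called (0.94 ± 0.41, edgeR adjusted p = 0.112).

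SAMD9L was at 2.77, 4.47 and 6.80 CPM (lowest, median and highest) under knockdown against 7.13, 8.79 and 11.2 CPM in 4OHT_siNT, with no overlap. The log2 fold change was −0.88 ± 0.20 (edgeR adjusted p = 0.00396), with −1.37 ± 0.26 in VM libraries alone. SAMD9L was called with siSMARCA4_2 alone (−1.23 ± 0.23, edgeR adjusted p = 0.00107) and not with siSMARCA4_4 alone (−0.58 ± 0.22, edgeR adjusted p = 0.105). Its neighbour SAMD9 gave −0.04 ± 0.21 (edgeR adjusted p = 0.909). SP100, a protein of the antiviral PML bodies of the nucleus, was at 83.0, 97.1 and 115 CPM against 99.7, 117 and 130 CPM. It fell by 0.31 ± 0.09 on the log2 scale (edgeR adjusted p = 0.0163). Against siNT 4 alone SP100 was not called (−0.17 ± 0.10, edgeR adjusted p = 0.25), nor without the unmatched library (−0.26, edgeR adjusted p = 0.0521). The calls of SAMD9L, SP100 and IFITM1 were lost with library 4-2V in the fit, at adjusted p of 0.0663, 0.0872 and 0.108 in edgeR.

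**Figure D4:**
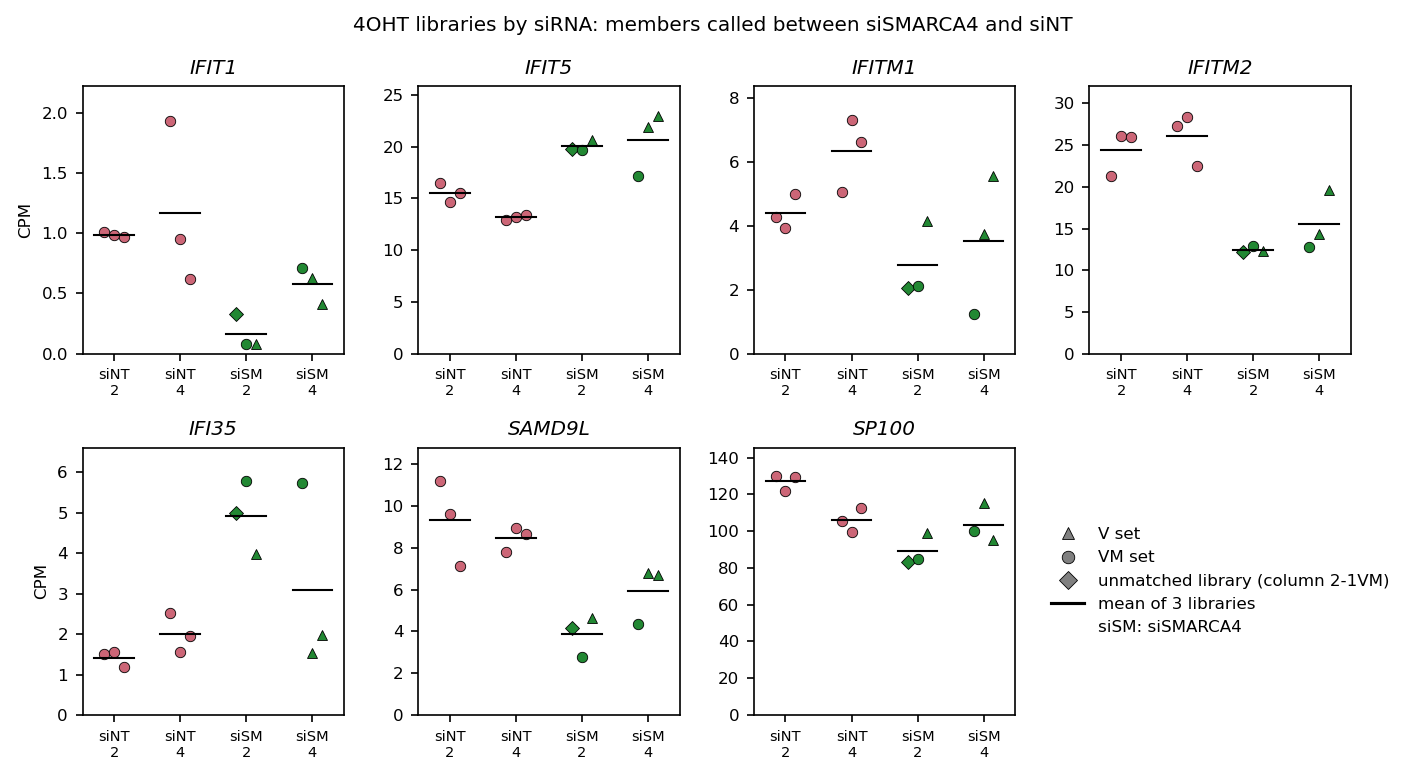
Level in CPM of the 7 genes called between 4OHT_siSMARCA4 and 4OHT_siNT, by siRNA (siNT 2, siNT 4, siSMARCA4_2 and siSMARCA4_4, 3 libraries each, with the mean as a line; triangles, V sets; circles, VM sets; diamond, the unmatched library). IFITM2, IFIT5 and SAMD9L show no overlap between siNT and siSMARCA4, while IFI35 with siSMARCA4_4 splits into 1 library at 5.74 CPM and 2 at 1.53 and 1.99 CPM. The share of all genes without overlap is not given here.

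Both GBP genes and both PARP genes were not called under knockdown. GBP1 gave −0.17 ± 0.25 (edgeR adjusted p = 0.645), GBP2 −0.41 ± 0.32 (edgeR adjusted p = 0.368), PARP9 −0.18 ± 0.24 (edgeR adjusted p = 0.618) and PARP14 0.19 ± 0.22 (edgeR adjusted p = 0.56). The ISG15 system gave no call, with ISG15 itself at −0.08 ± 0.14 (edgeR adjusted p = 0.735). ISG20, at 1.82 to 5.27 CPM against 0.965 to 2.82 CPM, gave 0.76 ± 0.33 (edgeR adjusted p = 0.0968). STAT2 missed the threshold in all sets (−0.32 ± 0.12, edgeR adjusted p = 0.0556) and was lower within VM sets (−0.54 ± 0.14, edgeR adjusted p = 0.0149), as were ADAR (−0.44 ± 0.13, edgeR adjusted p = 0.0263), EIF2AK2 (−0.43 ± 0.12, edgeR adjusted p = 0.021) and IFI44 (−1.34 ± 0.41, edgeR adjusted p = 0.03). Within VM sets the knockdown side was only libraries 2-3VM and 4-2VM, where IFI44 had 9 and 5 counts. In V libraries of 4OHT_siSMARCA4 IFI44 was at 1.13 to 1.54 CPM, inside the 0.940 to 2.02 CPM of 4OHT_siNT.

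Setting 4OHT_siSMARCA4 against DMSO_siNT showed how far these genes stood from growing cells after knockdown. Of 33 tested, 18 were lower than in DMSO_siNT, 2 were higher (ISG20 and IRF1) and 13 were not called, where 59.1% of all genes were called, 30.5% lower and 28.7% higher. With library 4-2V in the fit 19 were lower and 2 higher (50.5% of all genes called), and within VM sets 16 of 34 were lower and 2 higher (43.9% of all genes called). The largest falls were those of IFIT1 (−4.34 ± 0.39), IFIT2 (−3.97 ± 0.38), GBP1 (−2.96 ± 0.24), IFITM2 (−2.39 ± 0.13) and GBP2 (−2.26 ± 0.31), with edgeR adjusted p from 2.73e-12 to 2.24e-06. ISG20 was higher by 3.12 ± 0.43 (edgeR adjusted p = 3.19e-06) and IRF1 by 1.19 ± 0.10 (edgeR adjusted p = 1.67e-09) on the log2 scale. IFI35 was not called here (−0.67 ± 0.29, edgeR adjusted p = 0.055), with knockdown libraries of 1.53 to 5.78 CPM against 4.41 to 9.66 CPM in DMSO_siNT. OAS3 lost its fall within VM sets (−1.37 ± 0.57, edgeR adjusted p = 0.067). This comparison shares DMSO_siNT with the comparison of senescent and growing cells and the knockdown libraries with the comparison of siSMARCA4 and siNT, so the 3 sets of values are not independent.

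**Figure D5:**
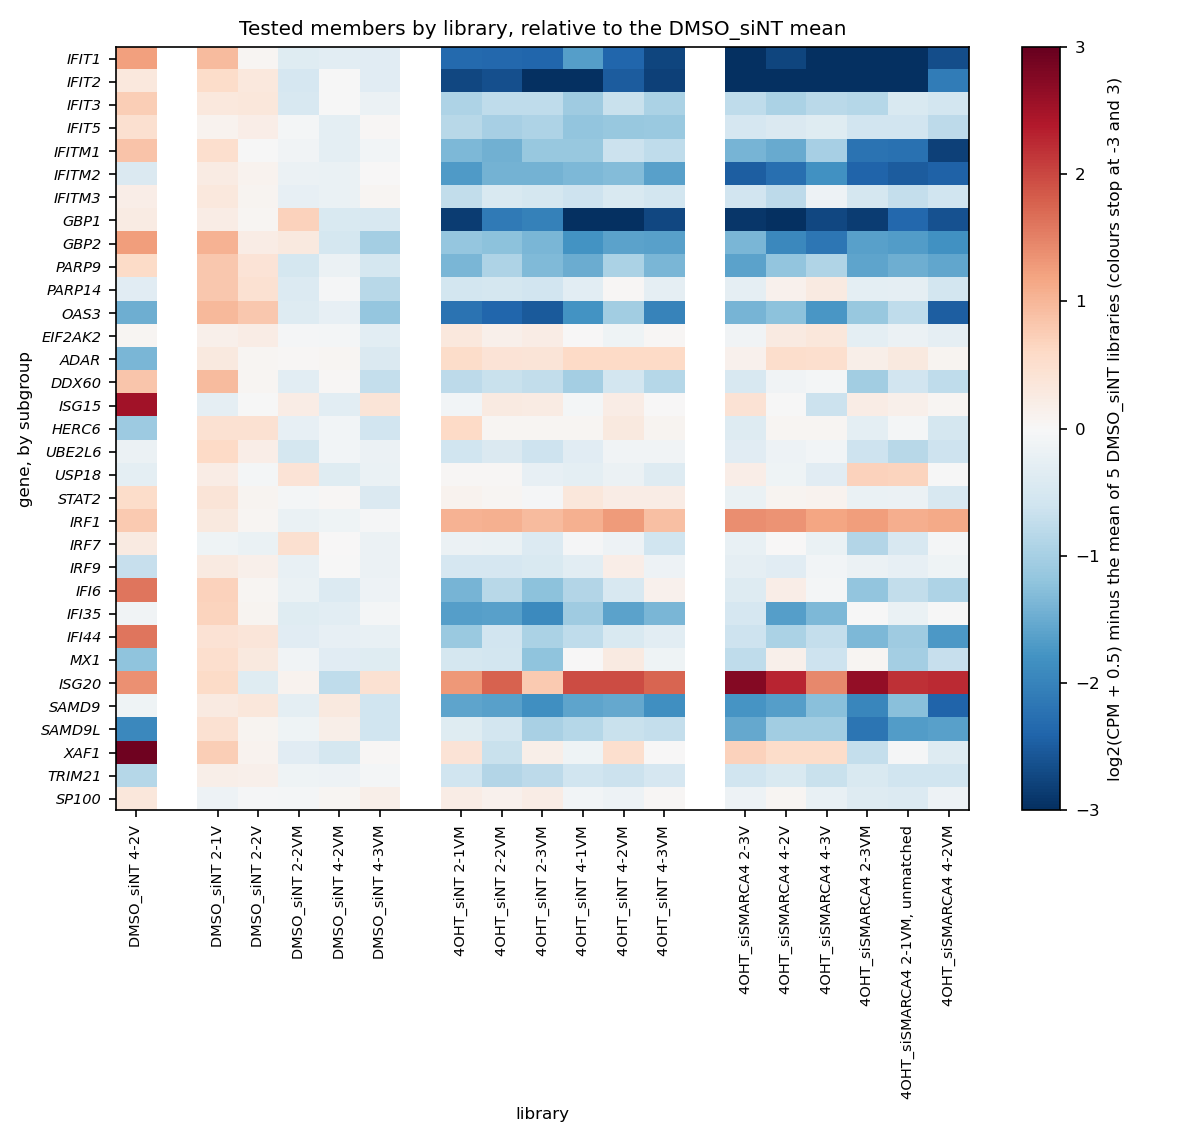
The 33 tested genes (rows, by subgroup) in each library (columns), with DMSO_siNT 4-2V set apart at the left. Colours show the log2 of the CPM plus a small constant, minus the mean of the 5 DMSO_siNT libraries, and stop at −3 and 3. The constant makes differences at low CPM look smaller than they are in CPM. The IFIT, IFITM and GBP rows are blue in all 4OHT libraries, IRF1 and ISG20 are red, and the DMSO_siNT library 2-1V is redder than the VM libraries in most rows.

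Some of these genes differed between the set letters. In a fit of group by set letters, chosen after seeing the data, DMSO_siNT V libraries were compared with DMSO_siNT VM libraries. PARP9 (1.07 ± 0.22, edgeR adjusted p = 0.0292) and PARP14 (1.06 ± 0.23, edgeR adjusted p = 0.0354) were higher in V libraries, 2 of 36 genes tested where 0.493% of all genes were called higher. Of the 36, 17 had an unadjusted p under 0.05 in edgeR, and the share of all genes at that threshold is not given here. The median log2 difference was 0.46 over the 36 genes and −0.0087 over all genes. Both V libraries here used siRNA 2, so that letters and siRNA are partly the same contrast; within siRNA 2 the V libraries were at 21.6 and 16.3 CPM for PARP9 and the VM library at 8.26 CPM. In 4OHT_siSMARCA4 the same comparison called IFITM1 higher in V libraries (1.41 ± 0.34, edgeR adjusted p = 0.0428), against 1.14% of all genes called higher, with a median of 0.29 over 36 genes and 0.022 over all genes. There 13 of the 36 had an unadjusted p under 0.05 in edgeR, again with no share of all genes given. With the unmatched library counted as VM, IFITM1 remained higher in V libraries (1.30 ± 0.28, edgeR adjusted p = 0.0133) and IFI35 was lower (−1.16 ± 0.30, edgeR adjusted p = 0.0319). Some knockdown libraries of V sets kept more of the target, with SMARCA4 at 128, 142 and 93.1 CPM in V libraries, 88.9 and 71.9 CPM in VM libraries and 80.0 CPM in the unmatched library. The part of residual SMARCA4 in these differences was not tested.

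Within each group the siRNAs were compared directly. Between siSMARCA4_2 and siSMARCA4_4 in senescent cells, edgeR called 0 of 36 genes, where it called 0.391% of all genes, and DESeq2 called 1. At an unadjusted p under 0.05 in edgeR 8 of the 36 differed, and the share of all genes at that threshold is not given here. The largest of these differences was CMPK2, lower with siSMARCA4_2 at a log2 difference of −2.65 ± 0.64 (edgeR adjusted p = 0.074), and USP18 was higher by 0.72 ± 0.17 (edgeR adjusted p = 0.0742). IFIT1 differed by −1.80 ± 0.75 (edgeR adjusted p = 0.267). So the calls of IFIT1, IFITM1, SAMD9L, SP100 and IFI35, made with siSMARCA4_2 alone and missed with siSMARCA4_4 alone, were not shown to differ between the siRNAs. Between siNT 2 and siNT 4 in senescent cells 0 of 36 were called by edgeR, where it called 4.24% of all genes, and 1 by DESeq2. At an unadjusted p under 0.05 in edgeR 6 of the 36 differed, again with no share of all genes given. In growing cells GBP2 was higher with siNT 2 by 1.46 ± 0.27 (edgeR adjusted p = 0.037), at 14.2, 7.73 and 8.19 CPM against 4.43 and 3.00 CPM with siNT 4, 1 of 36 genes where 0.26% of all genes were called, and it was not called with library 4-2V in the fit.

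The library DMSO_siNT 4-2V had the highest ISG15 of all, at 221 CPM against 30.4 to 50.04 CPM in the other DMSO_siNT libraries. XAF1 was at 9.75 CPM against 0.443 to 1.74 CPM, IFI6 at 37.9 CPM against 9.01 to 19.9 CPM, IFI44 at 8.96 CPM against 1.96 to 3.75 CPM and IFI44L at 4.53 CPM against 0.280 to 1.32 CPM. ADAR, at 76.5 CPM against 148 to 243 CPM, SAMD9L, at 3.40 CPM against 9.44 to 20.2 CPM, and OAS3, at 1.93 CPM against 2.49 to 12.5 CPM, lay below the others. Of the 33 tested genes 13 lay above the range of the other 5 libraries, 8 below and 12 within, against 33.2% of all genes above and 43.5% below. With a single such library no test was made.

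Genes upstream of this program were read from a list of the pathway. Of 10 interferon genes, 8 had 0 counts in all 17 libraries (IFNB1, IFNA2, IFNK, IFNW1, IFNG, IFNL1, IFNL2 and IFNL3), which at 3 counts allows 0.170 to 0.265 CPM per library, counting error only. IFNA1 had at most 1 count. IFNE, an interferon of mucosal epithelia, was the one tested. It was at 0.278, 1.26 and 1.46 CPM (lowest, median and highest) in DMSO_siNT, at 3.04, 4.88 and 5.41 CPM in 4OHT_siNT and at 1.77, 3.16 and 5.78 CPM in 4OHT_siSMARCA4. It rose by 2.17 ± 0.33 on the log2 scale in 4OHT_siNT against DMSO_siNT (edgeR adjusted p = 9.47e-06) and was not called under knockdown (−0.51 ± 0.27, edgeR adjusted p = 0.176). In library 4-2V, IFNB1 had 1 count and IFNE 3.

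Of 5 tested receptor genes 4 were higher and 1 was lower in senescent cells, where 27.9% and 30.3% of all genes were. IFNAR1 rose by 0.33 ± 0.07 and IFNAR2 by 0.60 ± 0.10, the chains of the type I receptor, and IFNGR1 rose by 0.56 ± 0.11 and IFNGR2 by 0.33 ± 0.11, those of the interferon gamma receptor, with edgeR adjusted p from 4.89e-05 to 0.0116. IFNAR2 went from 10.2 to 14.2 CPM to 18.2 to 21.0 CPM. IL10RB, a chain shared with the interferon lambda receptor, fell by 0.25 ± 0.10 (edgeR adjusted p = 0.0282) and was higher under knockdown by 0.28 ± 0.09 (edgeR adjusted p = 0.0294). IFNLR1, the other chain of that receptor, had at most 1 count. The remaining receptors were not called under knockdown, with values of −0.05 to 0.19.

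The receptor-bound kinase TYK2 was lower under knockdown by 0.26 ± 0.09 (edgeR adjusted p = 0.0484), and was not called within VM sets (edgeR adjusted p = 0.0691). None of 4 tested feedback inhibitors was called under knockdown, against 24.6% of all genes, and 2 were lower and 1 higher in senescent cells, against 30.3% and 27.9%. At an unadjusted p under 0.05, 1 of the 4 (SOCS1) differed under knockdown.

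Other interferon-stimulated genes outside the 41 were more often lower than higher in senescent cells. Their list, like that of the 41, was chosen with earlier results of these data known, so it is not an independent check. Of 30 tested of 40 listed, 16 fell and 5 rose in 4OHT_siNT against DMSO_siNT, with a median of −0.48, where 30.3% of all genes were called lower and 27.9% higher. Under knockdown 2 fell and 2 rose, with a median of 0.0008, where 12.9% and 11.7% of all genes did. CXCL10, a chemokine that draws T and NK cells, was at 0 to 1.18 CPM in DMSO_siNT, at 7.27, 8.28 and 11.1 CPM in 4OHT_siNT and at 33.9, 39.1 and 61.1 CPM in 4OHT_siSMARCA4. No group overlapped another, and it rose by 4.29 ± 0.39 (edgeR adjusted p = 1.01e-08) in senescent cells and by a further 2.26 ± 0.24 (edgeR adjusted p = 2.55e-06) under knockdown. NMI, the partner of IFI35, fell by 3.28 ± 0.23 in senescent cells (edgeR adjusted p = 2.01e-10). It rose by 1.06 ± 0.25 under knockdown (edgeR adjusted p = 0.00397), from 0.562, 0.853 and 1.32 CPM to 1.53, 1.94 and 2.35 CPM. Both sizes rest on few counts in 4OHT_siNT. TRIM22, a restriction factor of retroviruses, was lower under knockdown, at 9.51, 15.6 and 27.5 CPM against 30.5, 32.2 and 38.4 CPM, a log2 fold change of −0.96 ± 0.21 (edgeR adjusted p = 0.00268). EPSTI1 was lower by 1.59 ± 0.54 (edgeR adjusted p = 0.037), with at most 4 counts in any knockdown library.

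Against the promoter letters, of the 16 genes with a RefSeq promoter that fell in senescent cells, 11 held an ISRE match, as did 2 of 9 not called and 1 of 3 that rose. Under knockdown, 2 of 4 that were lower, 1 of 2 that were higher and 11 of 22 not called held one. IFIT3 and IFIT5, with 2 matches each like IFIT1, did not share its lower level under knockdown, and SAMD9L and SP100, which were lower, held none in the window. These counts are given without a test.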

How the data were processed

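The authors deposited raw read counts per gene symbol for 18 libraries in 36 columns, 1 for each of 2 lanes. Per the labels, poly(A) RNA was made into directional libraries, and the submitters' processing notes name STAR 2.7.8a, hg38 and DESeq2 1.36.0. The counter, the annotation and the strand setting are not given in the sources used here. Lanes were summed, since they differed far less (chi-square per degree of freedom 1.19 to 1.27) than libraries of a group did (2.33 to 315). Of the 18 libraries, 17 matched a sample label. The column of the remaining 1 was named for siRNA 2 and set 1VM, which no knockdown sample title gives, and it entered as a replicate of its group. Of 29 labelled samples, 12 were not analysed here.

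Counts of 13276 genes that passed filterByExpr (minimum count 10) were fitted with TMM scaling in edgeR 4.0.16 (R 4.3.3), with 1 quasi-likelihood model of the 3 groups without covariates. Adjustment was by Benjamini-Hochberg over all genes tested. Genes were called at an adjusted p under 0.05. DMSO_siNT 4-2V was left out because its ESR1 and HRAS counts went against the line. The counts of called genes from the gene list were repeated with it for the comparisons of the 3 groups and of the siRNAs within a group. Calls between V and VM sets, calls with single siRNAs and calls outside the gene list were given without it. Levels are CPM on the TMM scale of all 18 libraries. siRNAs were compared in a fit of group by siRNA. On simulated counts for the comparison of 4OHT_siSMARCA4 with 4OHT_siNT (13146 genes), edgeR recovered 85% of 2-fold and 95% of 4-fold changes, with 7.22% false calls. DESeq2 1.42.0 had 13% false calls. The simulated counts held no differences by set letters or siRNA, and only 2-fold and 4-fold changes. These rates therefore do not cover smaller changes or such differences between libraries.

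Alternatives were DESeq2, its size factors, no filter, 2-group fits, VM sets, single siRNAs, a block for the set label and leaving out each library. The VM sets with the unmatched library, the block with all libraries, and V against VM sets with and without the unmatched library were added after seeing the data. The gene list and the pathway lists were chosen with earlier results of these data known. Values were given for all IFIT, IFITM, GBP and PARP genes, for genes called under knockdown, and for the 5 largest rises and falls among those called in the other comparisons. Outside the 41, values were given for ligands, receptors and genes called under knockdown, except for some items that are not reported here. Other genes were named after their values were seen.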

Additional observations from a re-analysis of the deposited data

Results flagged for a closer look

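In 6 of 108 sets of 6 libraries, 1 library stood far from the rest by Dixon's criterion, where chance gives about 5.4. Of these, 4 were library DMSO_siNT 4-2V. It was the highest for ISG15, at 221 CPM (gap over range 0.750), and the lowest for TRIM21, at 8.96 CPM (0.690), ESR1, at 28.0 CPM (0.938), and HRAS, at 414 CPM (0.845). The other 2 were library 4OHT_siSMARCA4 4-3V, which was the highest of its group for IFITM2, at 19.6 CPM (0.661), and the lowest for HRAS, at 3243 CPM (0.686). Without 4OHT_siSMARCA4 4-3V, IFITM2 remained called lower under knockdown.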

How the results depend on the processing

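For 4OHT_siNT against DMSO_siNT and 4OHT_siSMARCA4 against DMSO_siNT, the counts of genes called lower stayed within 1.5 times of the reported ones under every alternative run, and no gene reversed a called direction. Leaving out each library in turn gave 3 higher and 17 to 21 lower, with a median of −0.75 to −0.58, in the former, and 2 to 3 higher and 16 to 20 lower, with a median of −0.67 to −0.44, in the latter. VM sets with the unmatched library gave 5 higher in 4OHT_siNT against DMSO_siNT. For these fits the share of all genes called is not given here.

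Calls under knockdown depended more on the processing. The share of all genes called moved too. It was 24.6% in the main fit, 10.6% with DMSO_siNT 4-2V and 21% in VM sets. With siSMARCA4_2 alone it was 26.1%, and with siSMARCA4_4 alone 9.46%. For the other settings of this paragraph that share is not given here, so that a change in these genes and a change in all calls cannot be told apart. Leaving out each library gave 2 to 3 higher and 3 to 7 lower, with a median of −0.14 to −0.017. The 3 came without 4OHT_siNT 4-1VM and the 7 without 4OHT_siSMARCA4 4-2V. With DMSO_siNT 4-2V in the fit 1 was lower. VM sets gave 1 higher and 8 lower (median −0.23), and with the unmatched library 9 lower (median −0.27). siSMARCA4_2 alone gave 8 lower, siSMARCA4_4 alone 1 higher and 1 lower, siNT 2 alone 1 higher and 3 lower, and siNT 4 alone 1 higher. At an adjusted p under 0.01, 2 were lower. Between siRNAs, DESeq2 called 1 gene higher for siSMARCA4_2 against siSMARCA4_4, 1 for siNT 2 against siNT 4 in senescent cells and 2 in growing cells, where edgeR with DMSO_siNT 4-2V called 0, with 10 at an unadjusted p under 0.05. The causes were not tested.

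Libraries of different groups with the same set label deviated together little (14 pairs, r −0.15 to 0.28, median 0.07, 5 over 0.1). Pairs with different set labels gave r −0.31 to 0.37, with a median of −0.002 and 18 of 71 over 0.1. The labels were therefore not taken to pair the samples, which does not show that the set label had no effect. A replicate block on the set label, without the unmatched library, gave 14 lower and a median of −0.35 in 4OHT_siNT against DMSO_siNT, where 48.3% of all genes were called. DDX60 (−0.33 ± 0.21, edgeR adjusted p = 0.209), SAMD9L (−0.45 ± 0.19, edgeR adjusted p = 0.0628), UBE2L6, IFI6 and IFI44 lost their calls there. Under knockdown the block gave 1 gene higher (IFI35) and 4 lower (IFITM1, IFITM2, SAMD9L and IFI44). IFIT1, IFIT5 and SP100 were not called, with a median of −0.27 and 11% of all genes called. With the block and all libraries, the median was −0.36 in the former, and under knockdown 0 genes were higher and 2 lower (median −0.30). The share of all genes called in that last fit is not given here.

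At least 1 of the 17 libraries had fewer than 20 counts for IFIT1, IFIT2, IFITM1, GBP2, OAS3, IFI35, IFI44, MX1, ISG20 and XAF1, which limits their precision. No V library of 4OHT_siNT was analysed, so V sets could not be compared between 4OHT_siNT and the other groups.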

Other observations

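Several interferon-stimulated genes outside the 41, named after their values were seen, moved by more than most of the list in senescent cells. APOL1, a lipid-binding protein that lyses trypanosomes, fell by 4.49 on the log2 scale in 4OHT_siNT against DMSO_siNT. TRIM14, an adaptor of antiviral signalling, fell by 1.94, PSMB9, a subunit of the immunoproteasome, by 1.86, and GBP3, a relative of GBP1 and GBP2, by 1.75. DTX3L, the ubiquitin ligase that pairs with PARP9, fell by 1.04, where PARP9 itself fell by 1.42. TAP1, the peptide transporter of antigen presentation, rose by 0.82 on the same scale. Each was called by edgeR at an adjusted p under 0.05, and none was called under knockdown.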
